A study of Mus musculus with 23 samples.

Results

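Microglia, the resident macrophages of the brain, were compared on 23 mouse microarrays, of which 8 held cells sorted as positive for Clec7a and 15 held cells for which no such gate is named. These are all 23 samples of the study, and their groups were taken from the labels. The ungated samples came from C57BL6 wild-type mice (WT) at 3 months (4 samples) and 12 months (4 samples), APPswlnd mice at 3 months (3 samples, APP) and P301S (PS19) mice at 3 months (4 samples, TAU). The gated samples came from APP mice at 12 months (4 samples) and TAU mice at 9 months (4 samples). The titles of these TAU samples give another age than their age field, and the field was used. APP mice carry a human amyloid precursor protein transgene and TAU mice a human tau transgene. The promoters of the transgenes and the sex of the mice were not given in the labels. All samples were cells of cortex and hippocampus sorted on CD45 and CD11b. The gate, the transgene and the later age came together in the 8 gated samples, so their parts in a difference cannot be told apart. The replicates are called biological, but nothing says that each is a separate animal, and the p-values measure the spread between these samples.

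The comparison asks which transcripts set gated microglia apart in both models alike. A core change was defined as a probe set for which every gated sample lay above every ungated sample, or every gated sample below every ungated one. It was counted over the 18726 probe sets that carry a symbol of an autosomal gene, of 22203 in all. The values are log2 signals made by the authors with the RMA method, and levels were compared between samples for the same probe set only.

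In a healthy brain, microglia survey the tissue and express a set of homeostatic genes such as Tmem119 and P2ry12, which depends on TGF-beta signalling. Around amyloid plaques and damaged neurons many of them take on a disease-associated profile, with lower homeostatic genes and higher genes for lipid handling, lysosomes and phagocytosis, a shift known to depend in part on the receptor Trem2. Clec7a encodes Dectin-1, a C-type lectin receptor on the cell surface that marks such cells.

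The arrays had medians between 6.87 and 7.13, and samples correlated with each other at between 0.905 and 0.991. The leading principal component of the autosomal values, with 37.1% of the variance, placed the gated samples between 32.5 and 59.7 and the ungated ones between -39.4 and -15.5. A background level was taken as the 95th percentile of 1455 probe sets for odorant, pheromone and taste receptors; it was 7.98 in ungated and 7.89 in gated samples on average. It was highest, at 8.72, in WT 12 months replicates 2 and 4. A gene whose lower side lay at or below background is given as a fold of at least the stated size. No probe set carried the symbol Clec7a, so the gate gene itself was not analysed here. Of the sort markers, Ptprc (CD45) ran from 15.08 to 16.30 in ungated and from 15.24 to 16.24 in gated samples, a difference of 0.09 ± 0.12 (SE, limma adjusted p = 0.603). Itgam, the CD11b chain, fell in gated samples by a log2 difference of -1.11 ± 0.15 (limma adjusted p = 4.75e-06), with no overlap between the groups. In bulk samples such as these, fewer cells of a type and less RNA per cell cannot be told apart.

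The core held 820 probe sets, 4.38% of those tested. Of these, 529 (2.82%) were higher and 291 (1.55%) lower in every gated sample. In the limma fit over all probe sets, 5029 autosomal probe sets (26.9%) were called at an adjusted p under 0.05, 2291 (12.2%) higher and 2738 (14.6%) lower in gated samples. All 820 core changes were among them, which follows from how they were chosen. The core rises were larger than the falls: 423 of 529 rises and 223 of 291 falls reached 2-fold, 152 rises and 33 falls reached 4-fold, and 24 rises and 0 falls reached 16-fold. The median log2 difference was 1.48 for the rises and -1.30 for the falls, beside -0.03 over all autosomal probe sets. Of the rises, 100 went from background to above it, 394 were above background on both sides and 35 stayed at or below it. Of the falls, 27 went to background, 241 were above it on both sides and 23 were at or below it throughout.

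The distance between the nearest gated and the nearest ungated sample, called the gap here, exceeded 1 on the log2 scale for 83 rises and 13 falls. Its median was 0.33 for rises and 0.22 for falls. Just inside the rule lay the rises of Mtch2, Pmvk and Psma5 and the falls of Mettl21a, Gimap6 and Fosb, each with a gap of 0.01. Just outside lay C1qa, Mdh2 and Tomm20 on the higher side and Wnk1, Gsk3b and Zfp532 on the lower, where the nearest samples met to 2 decimals. The count of falls depended on WT 12 months replicates 2 and 4, the arrays of highest background: without both it was 481, and that of rises 545. These libraries were the nearest ungated samples for 73 and 65 of the 291 falls.

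For 266 of 529 rises the nearest ungated sample belonged to the aged WT group, and for 166 it was WT 12 months replicate 3. On the gated side the nearest sample was a TAU sample for 333 rises, and gated TAU replicate 4 alone for 229. Without that sample the core would hold 634 rises. For the falls, gated APP replicate 2 was nearest most often, for 82 of 291, and without it there would be 376.

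**Figure D1:**
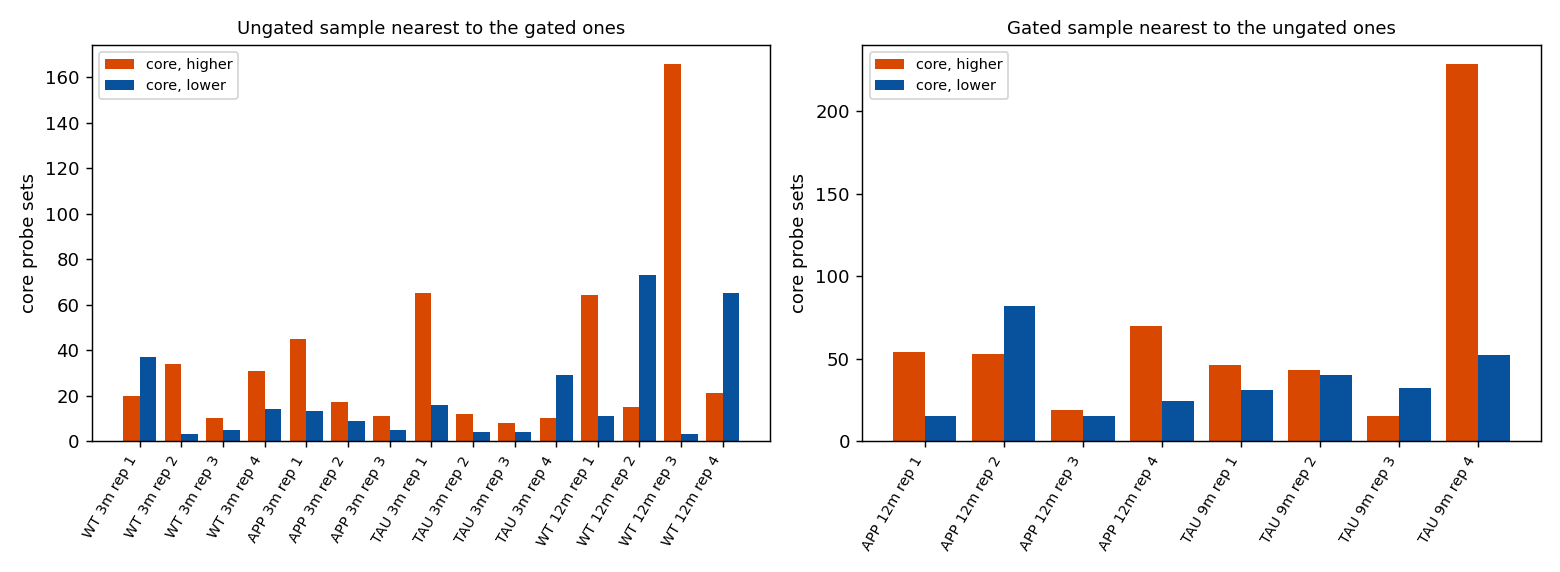
Bars count the core probe sets for which each sample was the nearest to the other side, with the 15 ungated samples on the left and the 8 gated ones on the right; orange bars are rises and blue bars falls. WT 12 months replicate 3 stands out among ungated samples with 166 rises, and gated TAU replicate 4 among gated ones with 229.

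The largest rises were of genes of the disease-associated profile. Cst7, which encodes cystatin F, an inhibitor of lysosomal cathepsins, ran from 8.02 to 9.62 (median 8.88) in the 15 ungated samples and from 15.92 to 17.32 (median 16.62) in the 8 gated ones. The gap of 6.30 was the widest of all, and the rise was 224-fold (log2 7.81 ± 0.19 SE, limma adjusted p = 9.68e-19). Axl, a receptor tyrosine kinase that binds apoptotic cells through Gas6, lay between 5.59 and 7.67 (median 6.54) in ungated and between 13.90 and 14.68 (median 14.34) in gated samples. Every ungated sample was below the average background, so the rise is given as at least 79.6-fold.

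Apoe, the lipid carrier whose human variants are the main common genetic risk for Alzheimer's disease, was already well above background in ungated samples, at 9.85 to 12.27 (median 11.53). It reached 17.29 to 18.62 (median 17.92) in gated samples, a 106-fold rise. Itgax, the CD11c integrin chain, ran from 5.61 to 6.55 (median 6.14) in ungated and from 11.59 to 13.36 (median 12.70) in gated samples, at least 22.4-fold. Ungated samples of every age and strain were thus dim for Itgax, and the groups did not overlap. Igf1, insulin-like growth factor 1, lay in a narrow range of 8.54 to 9.25 (median 8.86) in ungated samples and spread from 12.43 to 17.28 (median 15.25) in gated ones, 64.8-fold higher.

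Further down the same list, Fabp5, a fatty acid binding protein, ran from 6.40 to 8.12 (median 7.55) in ungated and 10.35 to 13.85 (median 12.46) in gated samples, at least 19.2-fold. Mmp12, the macrophage elastase, ran from 6.04 to 8.08 (median 6.98) and from 10.07 to 14.58 (median 12.52), at least 22.5-fold. Etl4 ran from 6.38 to 7.16 (median 6.81) and from 9.27 to 13.40 (median 11.34), at least 10.3-fold. These 3 genes also spread widely among the gated samples, which is taken up with the models. Cd200r4, a receptor of the CD200R family, rose at least 2.79-fold, from 4.05 to 5.42 to between 7.56 and 10.86.

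Of 37 measured genes of the disease-associated list, 37 were called higher and 29 were core rises, where 12.2% and 2.82% of all autosomal probe sets were. The counts of every list below are to be read against these shares. For lower calls and core falls the shares were 14.6% and 1.55%. The median log2 difference of the list was 2.07. The list reflects published profiles of such cells and was written with earlier results of these data known, so its direction is not independent evidence. Its mean level was 10.82 to 11.24 in ungated and 13.33 to 14.34 in gated samples.

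**Figure D2:**
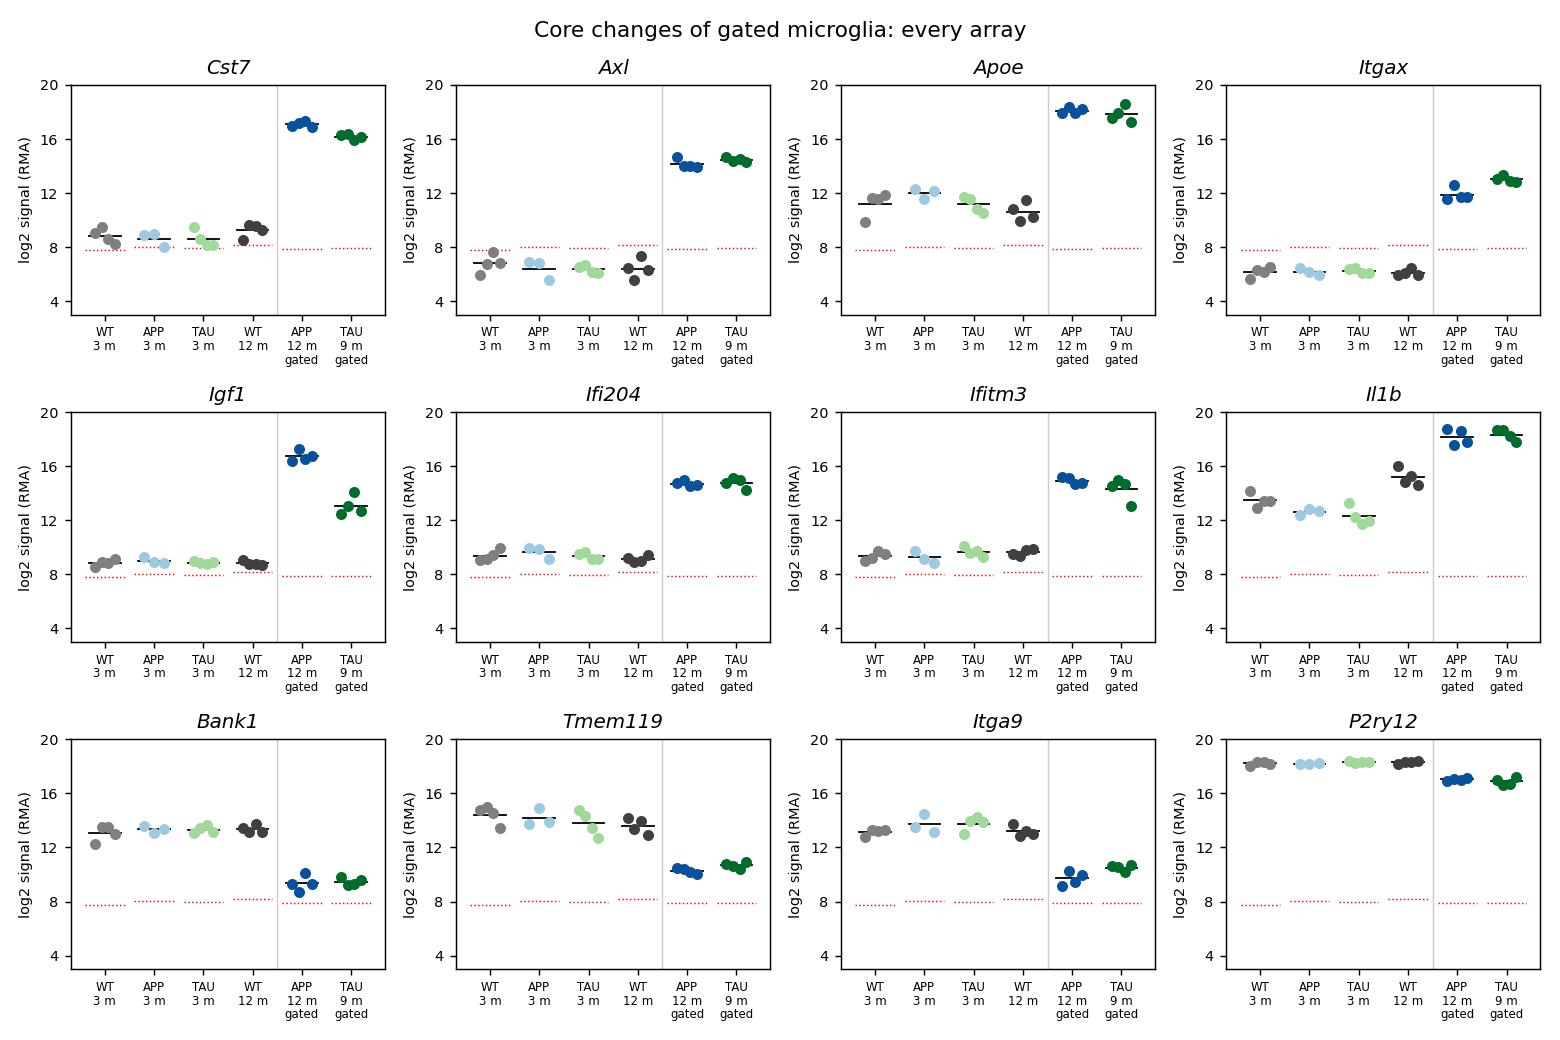
Each point is 1 array and each black line a group mean, on the log2 signal axis, for 8 genes of the core rises and 4 of the core falls; red dotted lines mark the mean background level of a group, and a grey line parts the 4 ungated groups from the 2 gated ones. In every panel all 8 gated samples lie on 1 side of all 15 ungated ones, and Igf1 also lies higher in gated APP than in gated TAU samples.

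Interferon-response genes formed another group of large rises. Cells that sense viral nucleic acid secrete type I interferon, whose receptor then drives transcription of such genes. Of 41 measured members, 38 were called higher and 0 lower, and 21 were core rises, where 12.2%, 14.6% and 2.82% of all autosomal probe sets were. On average 17 of the 41 lay above background in ungated and 27 in gated samples, so that for the dim members the size is not exact. The median log2 difference was 1.34. Ifi204, a DNA-binding protein of the interferon-inducible p200 family, ran from 8.95 to 9.92 (median 9.20) in ungated and from 14.27 to 15.09 (median 14.77) in gated samples, 41.1-fold higher. Its relative Ifi211 ran from 6.60 to 7.45 (median 7.12) and from 11.89 to 12.96 (median 12.45), at least 22.5-fold. A further relative, Ifi207, rose 24.2-fold. These p200 genes lie together on chromosome 1 and resemble each other, so that probes of 1 may in part read another.

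Ifitm3, a membrane protein that blocks virus entry, ran from 8.87 to 10.12 (median 9.54) and from 13.08 to 15.19 (median 14.70), 35.0-fold higher. Slfn5, a Schlafen family gene, ran from 6.60 to 7.67 (median 7.14) and from 10.47 to 12.60 (median 11.73), at least 12.4-fold. Oas1a, which makes the 2-5A signal that activates RNase L, ran from 5.47 to 6.56 (median 5.89) and from 8.46 to 10.64 (median 9.66), at least 2.90-fold. These 6 genes were core rises, so by the rule no gated sample reached down to an ungated one. Between the gated models, 0 of the 41 genes were called different (0.935% of all autosomal probe sets were).

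Promoter sequence was available for 659 of the 818 core genes, from RefSeq with build GRCm38.p6. The 250 bases before each start were searched on both strands for 4 motifs, namely the interferon-stimulated response element (GAAA repeated after a spacer of 2 bases), TGANTCA (AP-1), GAGGAAGT (PU.1) and CACGTG (E-box). The interferon element was present for 8.22% of 426 core rises, 1.72% of 233 core falls and 3.47% of 14990 measured autosomal genes. It was present for 8 of the 15 interferon-list genes among them. TGANTCA, with any base allowed in the middle, was present for 10.1% of rises, 3.43% of falls and 7.40% of all. PU.1 was present for 5.40%, 4.29% and 2.64%, and the E-box for 7.75%, 10.7% and 7.95%, in the same order. A match is a description of the letters and not a bound site. The promoters below belong to large rises that hold a match and were chosen after the values were seen; the capitals mark the matches.
Ifi211, chr1:173913047-173913296, minus strand: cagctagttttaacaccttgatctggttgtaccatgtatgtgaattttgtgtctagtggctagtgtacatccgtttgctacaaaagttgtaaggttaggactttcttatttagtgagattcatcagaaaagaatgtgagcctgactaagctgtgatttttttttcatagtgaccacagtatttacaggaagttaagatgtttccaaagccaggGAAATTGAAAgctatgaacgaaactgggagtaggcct
Oas1a, chr5:120907526-120907775, minus strand: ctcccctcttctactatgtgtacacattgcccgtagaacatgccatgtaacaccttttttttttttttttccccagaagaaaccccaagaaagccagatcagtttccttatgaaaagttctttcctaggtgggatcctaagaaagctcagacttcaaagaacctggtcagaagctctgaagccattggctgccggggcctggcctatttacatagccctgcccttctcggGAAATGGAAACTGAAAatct
Itgax, chr7:128129300-128129549, plus strand: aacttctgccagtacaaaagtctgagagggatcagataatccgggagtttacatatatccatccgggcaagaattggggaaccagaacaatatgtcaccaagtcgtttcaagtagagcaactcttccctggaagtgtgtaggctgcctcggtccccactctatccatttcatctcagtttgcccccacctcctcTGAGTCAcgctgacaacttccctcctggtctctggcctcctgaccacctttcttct
Igf1, chr10:87860861-87861110, plus strand: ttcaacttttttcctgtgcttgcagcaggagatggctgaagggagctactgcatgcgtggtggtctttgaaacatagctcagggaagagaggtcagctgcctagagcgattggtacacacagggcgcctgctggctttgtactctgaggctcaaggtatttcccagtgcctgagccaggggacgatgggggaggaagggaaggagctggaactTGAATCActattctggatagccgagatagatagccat
The interferon element began 37 bases before the start in Ifi211, and 2 overlapping copies began 20 and 14 bases before it in Oas1a. The TGANTCA match began 56 bases before the start in Itgax, as TGAGTCA, and 37 bases before it in Igf1, as TGAATCA.

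MHC class I genes, which present peptides from inside the cell, were mostly higher in gated samples: 10 of 14 measured members were called higher and 1 lower, and 8 were core rises. H2-D1 ran from 10.43 to 11.69 (median 11.13) in ungated and from 13.12 to 13.98 (median 13.70) in gated samples, 5.78-fold higher. H2-K1, also a classical class I gene, rose 3.17-fold, from 14.65 to 15.99 up to 16.68 to 17.25. H2-T23 and H2-M3, non-classical class I genes, rose 3.53-fold and 3.51-fold. Class I genes are closely related, and their probe sets may share signal. Chromosome 17, which holds the H2 genes, had the largest share of core rises of the 19 autosomes, 4.46% of its 964 probe sets.

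MHC class II genes, which present peptides taken up from outside, were called higher in most measured cases. Of 9 measured members 7 were called higher and 0 lower, 3 were core rises, and 5 were called different between the gated models. H2-Ab1 was the largest, at 7.52 to 9.25 (median 7.81) in ungated and 9.86 to 13.78 (median 11.94) in gated samples, at least 12.9-fold. H2-Eb1 and H2-Aa were called higher (9.18-fold and 6.19-fold) without being core changes, since their lowest gated samples, 9.20 and 9.33, lay below the highest ungated ones, 9.85 and 9.73.

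Cytokine, chemokine and NF-kB target genes were called higher in 18 of 30 measured cases and lower in 0, and 11 were core rises. Il1b, interleukin 1 beta, rose 28.8-fold, and among ungated samples it was highest in aged WT. It averaged 15.17 ± 0.62 (SD, n = 4) in WT at 12 months, 13.48 ± 0.51 (SD, n = 4) in WT at 3 months, and ran from 17.53 to 18.75 in the 8 gated samples. The WT age difference of 1.69 was not called (limma adjusted p = 0.149). Il1rn, the natural antagonist of the interleukin 1 receptor, also rose, from 4.55 to 5.90 (median 5.29) to between 8.69 and 11.80 (median 10.14), at least 4.89-fold.

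Ptgs2, the prostaglandin synthase COX-2, rose at least 14.3-fold, and the neutrophil attractant Cxcl2 at least 9.07-fold. The chemokine Ccl6 ran from 10.55 to 12.68 (median 11.69) in ungated and from 15.08 to 16.30 (median 15.76) in gated samples, 17.5-fold higher. Tnf was called higher, 6.36-fold, but its highest ungated sample at 13.79 lay above its lowest gated one at 13.13. Among growth and secreted factors, 8 of 17 were called higher, 0 lower, and 4 were core rises. They included Csf1, the ligand of the receptor on which microglia depend for survival, at 12.57 to 14.71 (median 13.61) in ungated and 16.58 to 17.51 (median 17.14) in gated samples, 9.71-fold higher.

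Many lipid and lysosome genes were called higher. Of 29 measured genes of lipid uptake, storage and efflux, 13 were called higher, 3 lower, and 6 were core rises. Besides Apoe and Fabp5 these included Plin2, which coats lipid droplets, at 8.53 to 11.24 (median 10.16) in ungated and 11.75 to 14.21 (median 13.38) in gated samples, 10.3-fold higher. Fabp3 rose 21.0-fold, but its ungated samples, at 7.66 to 8.66, lay near the average background of 7.98, so this size is not exact. Npc2, which carries cholesterol inside lysosomes, rose 5.45-fold. Ch25h, cholesterol 25-hydroxylase, rose at least 1.90-fold from 5.06 to 5.77 in ungated samples, all at background, to between 6.70 and 10.88.

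Of 37 lysosome genes 24 were called higher, 3 lower, 13 were core rises and 1 a core fall. Cd63, a tetraspanin of late endosomes, ran from 14.98 to 16.75 (median 16.05) and from 18.40 to 18.97 (median 18.81), 6.88-fold higher. Cathepsin Z (Ctsz) rose 3.57-fold, cathepsin B (Ctsb) 2.42-fold and beta-glucuronidase (Gusb) 2.78-fold. Cholesterol synthesis contributed least to the core among these lists: 8 of 17 genes were called higher and 1 lower, but only Pmvk, phosphomevalonate kinase, was a core rise, and it lay just inside the rule. The mean level of the list was 8.09 to 8.34 in gated APP, 7.21 to 7.43 in gated TAU and 7.20 to 7.52 in ungated samples. Between the gated models 6 of the 17 genes were called, where 0.935% of all autosomal probe sets were. Above background lay 5 of the 17 in ungated and 8 in gated samples.

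Phagocytosis receptors moved in both directions, with 10 of 27 called higher and 6 lower, 7 core rises and 2 core falls. Besides Axl and Itgax, the rises included Fcgr4, an activating IgG receptor, 9.90-fold, the lipopolysaccharide co-receptor Cd14, 4.23-fold, and Tyrobp, the adaptor (DAP12) that signals for Trem2, 2.63-fold. Trem2 itself ran from 14.09 to 15.20 (median 14.64) in ungated and from 15.58 to 16.69 (median 15.96) in gated samples, 2.58-fold higher. The core falls were Itgam and Stab1, a scavenger receptor, which ran from 14.02 to 16.35 (median 14.87) in ungated and from 10.97 to 13.57 (median 11.86) in gated samples, 6.91-fold lower. Of 17 complement genes 8 were called higher and 2 lower, with 4 core rises and 1 core fall, Itgam, which also stands among the phagocytosis receptors. C1qc, a chain of the C1q initiator, rose 1.99-fold, from a median of 15.34 to one of 16.26. NADPH oxidase and redox genes gave 12 of 21 higher and 2 lower, with 5 core rises and 1 core fall. Slc7a11, the cystine transporter, rose at least 4.29-fold, while Gclc, which makes the glutathione precursor, fell 1.98-fold. Lower calls among the complement and the redox genes were no more frequent than the 14.6% over all autosomal probe sets.

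Most measured genes of both arms of energy metabolism were called higher. Of 24 genes of glycolysis and HIF1 targets 15 were called higher and 1 lower, and 10 were core rises. Hif1a, the oxygen-regulated transcription factor subunit, ran from 11.44 to 12.62 (median 12.02) and from 13.05 to 15.28 (median 14.23), 4.39-fold higher. The glycolytic enzymes Tpi1 and Pkm rose 6.07-fold and 4.13-fold, and the growth factor gene Vegfa 4.93-fold. Of 47 genes of oxidative phosphorylation, the mitochondrial chain that makes ATP, 38 were called higher, 0 lower, and 19 were core rises, with a median of 0.76. Cox6b1 of complex IV ran from 11.09 to 12.53 (median 11.97) and from 13.11 to 13.94 (median 13.45), 3.25-fold higher, and Ndufb2 of complex I rose 3.08-fold.

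Of 34 measured genes of cytosolic ribosomal proteins, 34 were called higher and 29 were core rises, with a median of 1.02. Their mean level ran from 14.71 to 15.92 in ungated and from 16.27 to 16.64 in gated samples. Rpl23, a protein of the large subunit, ran from 11.98 to 13.60 (median 12.98) and from 14.40 to 15.01 (median 14.70), 3.55-fold higher. The counts depended on scaling: with quantile normalization 31 were called and 22 were core, at a median of 0.79, and with centred arrays 34 were called and 24 were core. Ribosomal proteins have many processed pseudogenes, which probes may also read. Proteasome genes moved less, with 13 of 30 called higher, 0 lower and 4 core rises. Among these was Psme1, a subunit of the interferon-inducible activator, 2.97-fold higher.

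**Figure D3:**
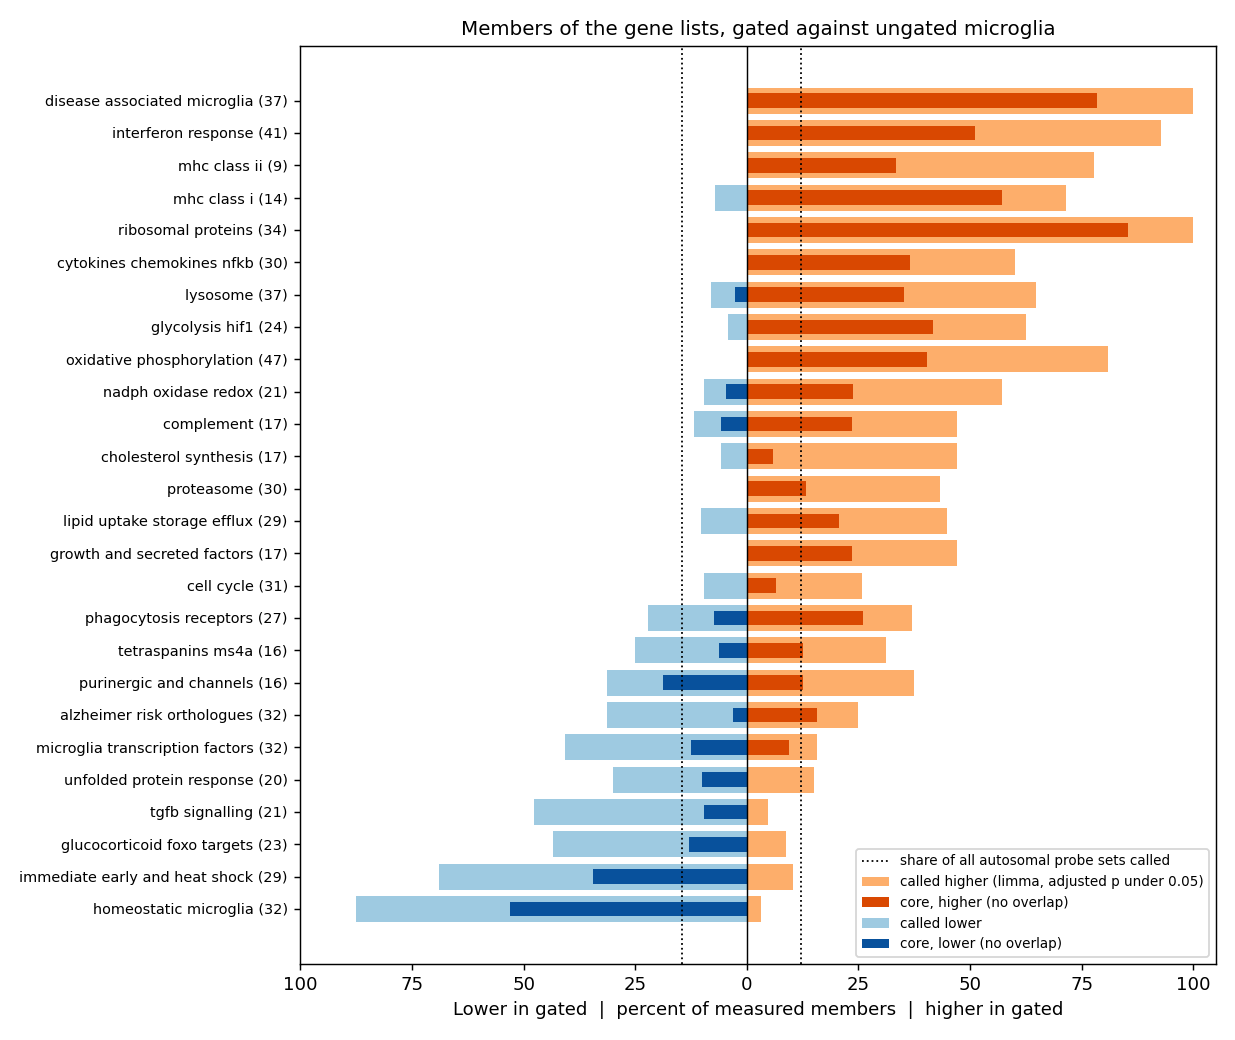
Bars give, for each of 26 gene lists, the percent of its measured autosomal members (number in parentheses) called higher (right) or lower (left) in gated samples, with core changes as the darker inner bars; dotted lines mark the 12.2% and 14.6% of all autosomal probe sets called higher and lower. The disease-associated and ribosomal lists reach 100% on the right, and the homeostatic and immediate early lists lead on the left.

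The falls were led by genes of resting microglia. Of 32 measured homeostatic genes 28 were called lower, 1 higher and 17 were core falls, where 14.6% and 1.55% of all autosomal probe sets were; the median was -1.21. Bank1, a scaffold protein best known from B-cell receptor signalling, had the largest fall, from 12.26 to 13.75 (median 13.40) in ungated to 8.69 to 10.11 (median 9.30) in gated samples. That is 14.5-fold lower (log2 -3.86 ± 0.17 SE, limma adjusted p = 7.96e-14). Tmem119, the marker of resident microglia, ran from 12.73 to 14.97 (median 13.95) in ungated samples. It had a median of 10.47 and a highest value of 10.95 in gated samples, 11.4-fold lower, and stayed above background in all of them.

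Itga9, an integrin alpha chain, ran from 12.78 to 14.46 (median 13.27) and from 9.18 to 10.68 (median 10.25), 10.1-fold lower. Il7r, the interleukin 7 receptor, went from 9.73 to 12.25 (median 10.64) to between 6.70 and 8.15 (median 7.54), at least 7.03-fold. Crybb1, a crystallin gene of microglia, went from 13.67 to 15.03 (median 14.53) to between 10.37 and 12.00 (median 11.55), 7.82-fold. The groups stood at least 1 log2 unit apart for each of these but not for the purinergic receptor P2ry12.

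P2ry12, through which microglial processes sense ATP and ADP, stayed bright: it ran from 18.01 to 18.39 (median 18.30) in ungated and from 16.64 to 17.22 (median 16.99) in gated samples, 2.46-fold lower. Its relative P2ry13 fell 3.14-fold, and Entpd1 (CD39), the enzyme that degrades ATP and ADP outside the cell, 2.60-fold. The fructose transporter Slc2a5 fell 5.22-fold, Khdrbs3 4.99-fold and Upk1b 3.90-fold. Outside that list, Epha2, an ephrin receptor, fell at least 4.62-fold, Nrip1, a nuclear receptor corepressor, 6.36-fold, Nos1ap 5.59-fold, and Plxna4, a semaphorin receptor, 4.98-fold. Slco4a1 fell at least 1.26-fold. Sall1, the transcription factor that maintains microglial identity, was called lower (3.05-fold) but its highest gated sample at 10.82 passed its lowest ungated one at 10.29.

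Immediate early and heat shock genes fell as well: 20 of 29 were called lower, 3 higher, and 10 were core falls. Jun, an AP-1 subunit, ran from 16.44 to 17.50 (median 17.06) and from 14.72 to 15.37 (median 15.18), 3.85-fold lower. Fos ran from 12.71 to 14.45 (median 13.63) and from 11.63 to 12.40 (median 12.01), 3.14-fold lower, and Klf2 fell at least 3.39-fold. The heat shock gene Hsph1 overlapped, with a highest ungated value of 14.37 and a median of 9.90. Of 23 glucocorticoid and FoxO targets 10 were called lower and 2 higher; Arrdc3, an arrestin-domain gene, fell 6.32-fold and Txnip, the thioredoxin inhibitor, 3.50-fold. TGF-beta signalling genes were lower in 10 of 21 cases, higher in 1, with 2 core falls. The TGF-beta receptor chain Tgfbr1 was 2.32-fold lower but overlapped. Higher calls in these lists were no more frequent than the 12.2% over all autosomal probe sets.

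The remaining lists are read against the 12.2% of all autosomal probe sets called higher and the 14.6% called lower, and several of their counts lie near these shares. Of 32 microglial transcription factors 5 were called higher and 13 lower, with 3 core rises, among them Bhlhe40 at least 2.37-fold, and 4 core falls. Of 20 unfolded protein response genes 3 were higher and 6 lower; Ddit3 (CHOP), which acts in cell stress, fell 3.73-fold and Atf4 2.04-fold, both in the core. Of 32 mouse orthologues of Alzheimer risk genes 8 were called higher and 10 lower, with 5 core rises and 1 core fall. The rises were Apoe, Lilrb4a, an inhibitory receptor, 20.2-fold, Scimp at least 2.52-fold, Trem2 and Ctsb. Cd33, a sialic acid receptor, was 2.34-fold lower but overlapped.

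Among 16 purinergic genes and channels 6 were called higher and 5 lower, with the chloride channel protein gene Clic4 in the core at 14.9-fold higher. Of 16 tetraspanin and Ms4a genes 5 were higher and 4 lower; Cd9 rose 3.70-fold and Tspan14 fell 2.56-fold, both in the core. Of 31 cell cycle genes 8 were called higher and 3 lower, and 2 were core rises. Lower calls were thus no more frequent than the 14.6% over all probe sets. The larger core rise was Cdkn1a, the p21 inhibitor of the cycle, at 10.2-fold, from 10.08 to 11.59 (median 10.72) to between 12.74 and 14.95 (median 14.39). Cdk1, the mitotic kinase, was also a core rise but lay at or below background in both arms on average, so no fold is given.

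Markers of other cells were followed over 10 lists, to be read against the 12.2% of all autosomal probe sets called higher and the 14.6% called lower. Neutrophil markers gave 5 of 12 called lower and 0 higher, with mean levels of 6.60 to 8.31 in ungated and 6.36 to 6.61 in gated samples. Ngp, a neutrophil granule protein, was among the 15 largest core falls, from 6.25 to 11.78 (median 8.58) to between 5.15 and 6.08 (median 5.58), at least 1.38-fold; S100a8 was a core fall at or below background on average. Astrocyte markers gave 5 of 11 lower and 1 higher, with mean levels of 7.78 to 9.41 and 7.17 to 8.40; Slc1a2 was 3.16-fold lower and Aldoc 3.19-fold lower, both with overlap. Border macrophage markers gave 2 of 11 higher and 5 lower, with 0 in the core, and Mrc1 was 2.44-fold lower. Their mean level ran from 7.45 to 8.41 in ungated, 7.41 to 7.57 in gated APP and 7.82 to 8.55 in gated TAU samples. Between the gated models 2 of the 11 were called, where 0.935% of all autosomal probe sets were.

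Monocyte markers gave 3 of 11 higher and 0 lower, with mean levels of 6.48 to 6.88 and 6.94 to 7.20. The core rise among them was Lyz1, a lysozyme gene close in sequence to Lyz2 of macrophages, at least 1.84-fold higher. Dendritic cell markers gave 1 of 12 higher and 3 lower, with Siglech, which microglia also express, a core fall. T and NK cell markers gave 3 of 14 higher and 1 lower, and B cell markers 1 of 6 each way, with Cd22 a core rise at background. Neuron markers gave 4 of 14 higher and 2 lower, oligodendrocyte markers 1 of 11 higher and 0 lower, and endothelial and pericyte markers 1 of 13 each way, none in the core. Counts this small are not set apart here from the shares over all probe sets. The part of other cells in the core changes was not tested.

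The core was then set beside each model alone. Against the same 15 ungated samples, the gated APP samples gave 861 rises (4.60%) and 500 falls (2.67%) without overlap, and the gated TAU samples 725 (3.87%) and 557 (2.97%). The comparisons share their ungated samples, and the core is by its rule what they have in common: 61.4% of the APP rises and 73.0% of the TAU rises, and 58.2% and 52.2% of the falls. A further 332 rises and 209 falls met the rule in APP alone, and 196 rises and 266 falls in TAU alone. Of the rises and falls in APP alone, 69 were called between the gated models, and of those in TAU alone 28. For the others a difference between models was not shown. The share called between the gated models was 0.935% of all autosomal probe sets.

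Between the gated models directly, 175 autosomal probe sets (0.935%) were called. The difference in means leaves the ungated samples out, while the estimate of the spread is shared by all 6 groups. Of the 820 core changes 51 (6.22%) were called and 769 were not, and not being called does not show that levels were alike. Among the core rises 37 were higher in gated APP and 10 in gated TAU, where 0.652% and 0.283% of all autosomal probe sets were. Among the core falls 1 was higher in APP and 3 in TAU. The median difference, APP minus TAU, was 0.09 for rises, -0.05 for falls and 0.00 over all autosomal probe sets.

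The largest differences toward gated APP were in Egln3 and Igf1. Igf1 read 16.39, 17.28, 16.54 and 16.74 in the gated APP samples and 12.43, 13.02, 14.12 and 12.71 in the gated TAU samples, a difference of 3.67 ± 0.26 (SE, limma adjusted p = 8.43e-09). Egln3, an oxygen-sensing prolyl hydroxylase, read 12.03, 12.46, 11.92 and 11.65 against 8.19, 7.89, 8.75 and 7.58, a difference of 3.91 ± 0.22 (limma adjusted p = 3.01e-10). Egln3 lay near background in gated TAU samples, where the arrays' background levels were 7.87, 7.93, 7.69 and 8.15, so its difference is not exact. For both genes the lowest APP sample lay above the highest TAU sample.

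Gpnmb, a glycoprotein of lipid-laden macrophages, averaged 11.82 ± 0.69 (SD, n = 4) in gated APP and 8.79 ± 0.95 (SD, n = 4) in gated TAU. Etl4 was higher in APP by 3.26, Fabp3 by 2.47, Myo1e, an unconventional myosin, by 2.34 and Fabp5 by 2.24 on the log2 scale. Hpse, heparanase, had group means of 7.51 and 4.92, both below background, so no size is given. Of 24 genes of glycolysis and HIF1 targets 7 were called between the models in either direction, and of 37 disease-associated genes 10. Over all autosomal probe sets 0.935% were. Other lists held such calls too, among them MHC class II (5 of 9), cholesterol synthesis (6 of 17), growth and secreted factors (4 of 17) and phagocytosis receptors (5 of 27).

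Toward gated TAU, large differences were measured in H2-Ab1 and Olr1. H2-Ab1 read 10.53, 9.86, 10.83 and 10.28 in gated APP and 13.52, 13.78, 13.67 and 13.05 in gated TAU, a difference of -3.13 ± 0.29 (APP minus TAU, limma adjusted p = 4.82e-07). Olr1, the receptor for oxidized low-density lipoprotein, read 8.91, 6.89, 7.76 and 6.56 against 12.06, 11.09, 12.51 and 9.92, with the APP mean of 7.53 below background, so that no exact size is given (limma adjusted p = 1.4e-05). In neither gene did the models overlap.

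Siglecf, a sialic acid receptor, averaged 9.16 ± 0.38 (SD, n = 4) in gated APP and 11.83 ± 0.51 (SD, n = 4) in gated TAU. Mmp12 differed by -2.19, Klrb1b, an inhibitory lectin receptor, by -1.71, the monocyte chemoattractant Ccl12 by -1.55 and Fxyd6 by -1.35. Stab1, a core fall, was less reduced in TAU, at 13.12 ± 0.50 against 11.17 ± 0.14 (SD, n = 4 each). Itgax was higher in TAU by 1.15 ± 0.22 (that is, -1.15 APP minus TAU, limma adjusted p = 0.00711).

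**Figure D4:**
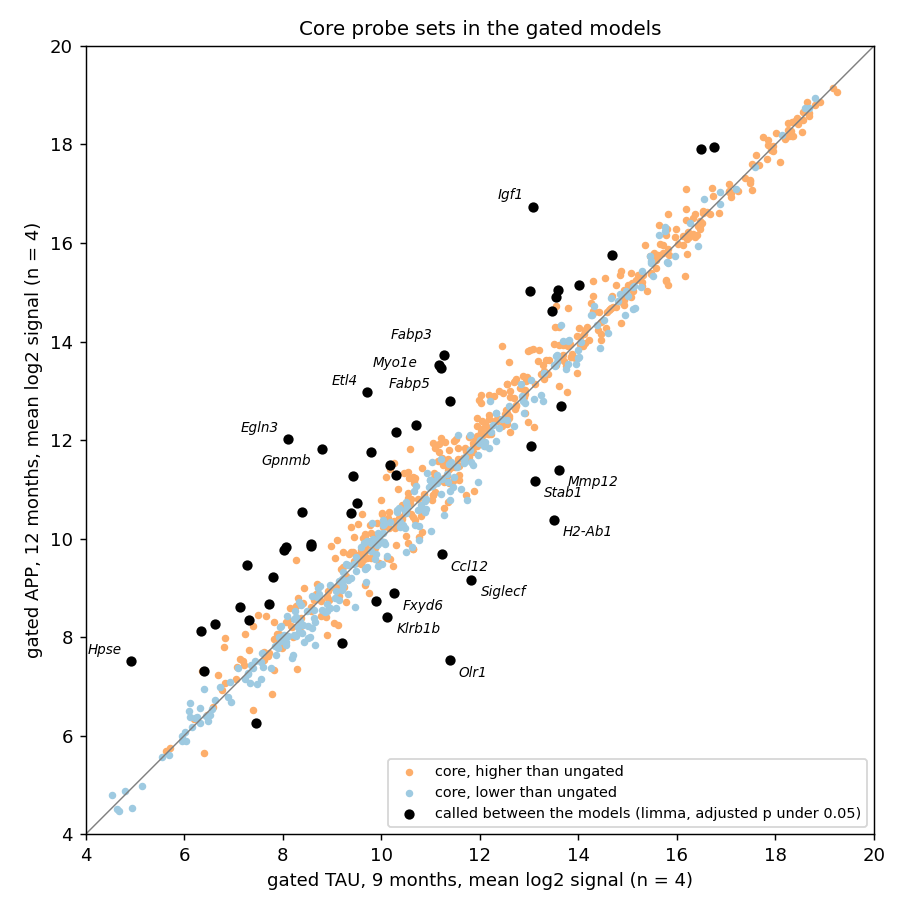
Each point is a core probe set placed by its mean log2 signal in gated TAU (horizontal) and gated APP (vertical) samples, orange for rises and blue for falls, with the line of equal signal. The 51 black points were called between the models; the named ones are the 8 largest differences each way, among them Egln3 and Igf1 above the line and Olr1 and H2-Ab1 below it, and Hpse and Olr1 have a mean below background in 1 or both models.

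Age and young transgenic status were examined within the ungated samples. WT microglia at 12 against 3 months had 5 autosomal probe sets called by limma (0.0267%), and 0 of them were in the core; at an unadjusted p under 0.05 there were 79 of the 820 core changes and 1535 of all 18726. The median age difference was 0.07 for the core rises, -0.25 for the core falls and 0.00 overall. Young APP and TAU against young WT had 0 called (0%) by limma, with 29 of the 820 and 525 of all at an unadjusted p under 0.05. The medians were -0.08, 0.00 and 0.00.

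Aged WT is the ungated group nearest in age to the gated samples. With it as the only ungated group, the calls numbered 1289 in the higher and 913 in the lower direction, and 743 rises and 480 falls did not overlap. Of the core, 472 of 529 rises and 237 of 291 falls were called in both gated models against aged WT, with median differences of 1.40 in APP and 1.30 in TAU for rises and -1.14 and -1.05 for falls. These values describe the core and do not test it, since the aged WT samples entered its rule.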

How the data were processed

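Microglial RNA (5 ng, extracted with TriPure and labelled with the 3'IVT Pico kit per the labels' protocols) was hybridised to 23 one-colour arrays. The authors deposited log2 values computed by RMA (background correction, normalization across arrays and a summary over each set's probes) in Transcriptome Analysis Console, per the submitters' processing notes; versions and the array's genome build were not given in the sources used here. The number of arrays limits the precision (median SE 0.14).

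These values entered the fit unchanged and unfiltered. Probe sets were named through the platform annotation and RefSeq gene identifiers: 19572 had a symbol, 2631 had none, and 845 on X or Y and 1 unplaced were left out. A mean for each of the 6 groups was fitted in limma 3.58.1 (R 4.3.3, eBayes, 17 residual and 5.11 prior degrees of freedom), and the mean of the 2 gated groups was set against the mean of the 4 ungated groups, two-sided, with Benjamini-Hochberg adjustment over all 22203 probe sets and a threshold of 0.05. A list is described by its counts and its median beside those of all probe sets, with no set test. The scripts were tested on simulated data.

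Named were the 15 largest core rises and falls with the brighter side above background, up to 6 core or called members per list, the 8 largest differences between models each way, the 3 widest gaps each way, the sort markers, and 3 probe sets on each side of the no-overlap rule. The members, the 26 gene lists and the 10 marker lists were chosen with earlier results of these data known. List members without a probe set, such as Spp1, Cd68 and Cd74, were not analysed here, and X-linked members such as Gpr34 were left out.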

Additional observations from a re-analysis of the deposited data

Results flagged for a closer look

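Of 205 checks for a sample apart from the other 3 of its group, over the largest rises and falls and the genes that differed between models, 8 found one; chance gives about 1 in 20. Apoe read 9.85 in WT 3 months replicate 1 against 11.53 to 11.83 in the others. Cd200r4 read 5.42 in WT 12 months replicate 3 against 4.41 to 4.57, Ifi207 read 9.10 in TAU 3 months replicate 2 against 8.22 to 8.26, and Egln3 read 6.36 in WT 3 months replicate 4 against 6.07 to 6.10. In gated APP, Itgax read 12.58 in replicate 2 against 11.59 to 11.71, Il1rn 11.80 in replicate 1 against 9.85 to 10.08, and Fxyd6 9.33 in replicate 1 against 8.72 to 8.77. Stab1 read 10.97 in gated APP replicate 4 against 11.22 to 11.27. All these genes were core changes, so by the rule none of these samples could cross to the other side of the gate.

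The 16 largest differences between the gated models within the core were each called by limma. Higher in APP were Egln3 (3.91), Igf1 (3.67), Etl4 (3.26), Gpnmb (3.03), Hpse (2.58), Fabp3 (2.47), Myo1e (2.34) and Fabp5 (2.24), as log2 differences, APP minus TAU. Higher in TAU were Olr1 (-3.86), H2-Ab1 (-3.13), Siglecf (-2.67), Mmp12 (-2.19), Stab1 (-1.95), Klrb1b (-1.71), Ccl12 (-1.55) and Fxyd6 (-1.35). The values for Olr1 and Hpse are fitted differences and not sizes of change, since the gated APP mean of Olr1 and both means of Hpse lay below background. The gated TAU mean of Egln3 lay just above background, so its value is not exact either. Age differs between the gated models as well as the transgene, and their parts cannot be told apart.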

How the results depend on the processing

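Calls higher and lower were 2291 and 2738 as reported, and core rises and falls 529 and 291. With aged WT as the only ungated group, calls were 1289 and 913 and core falls 480. With the young groups alone, core falls were 537. With gated APP as the only gated group, calls lower were 1756 and the core 861 and 500; with gated TAU alone, core falls were 557. Fewer samples make the no-overlap rule easier to meet. Leaving out WT 12 months replicates 2 and 4 together, chosen after seeing the data, gave 545 and 481. Leaving out 1 sample at a time gave 2009 to 2371 calls higher, 2315 to 2789 lower, 529 to 634 core rises, 291 to 376 core falls, and 40 to 60 core changes called between models (51 as reported).

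Centring the arrays gave 2367 and 2333 calls, and a core of 477 and 204; quantile normalization gave 2478 and 2535, and 578 and 329. A filter on dim probe sets left 505 and 279 in the core. Other variance models, array weights, a Y-linked covariate and unnamed probe sets kept the counts within 1.5 times. A 2-group fit of the 8 gated against the 15 ungated samples gave 2277 calls higher and 2734 lower. There the SE was larger for genes that differed between models, such as Igf1 (0.47 against 0.16) and Etl4 (0.42 against 0.14). For Axl it was 0.21 in both fits. Same-numbered samples of different groups did not consistently deviate together (55 pairs, median correlation 0.08, from -0.43 to 0.55). For differently numbered samples the median was -0.04 (165 pairs, from -0.67 to 0.57). The numbers were not taken to pair samples, and a weak link between same-numbered samples was not tested. The replicate block gave 2424 calls higher and 2918 lower. Of the 43 genes followed over 38 alternatives, 2 values changed sign, both of Ptprc: -0.15 with quantile normalization and -0.22 with gated APP alone. Levels near background limit the dim genes to bounds.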

Other observations

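The core was spread over all 19 autosomes. Core rises made up between 1.75% of the probe sets on chromosome 7 and 4.46% on chromosome 17. Core falls made up between 0.909% on chromosome 18 and 2.47% on chromosome 14. In ungated samples the probe sets of the core were brighter than most: the median level was 10.16 for rises and 11.69 for falls, beside 6.96 over all autosomal probe sets. In gated samples these medians were 12.10 and 10.24.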
